A study of Mus musculus with 24 samples.

Results

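The proteasome subunit genes were measured in 24 arrays of hindlimb muscle from mice that carried extra alpha7BX2 integrin (TG) or were wild type (WT), each after 1 downhill run or at rest. The family was taken by symbol, as every gene whose annotated name starts with Psma, Psmb, Psmc, Psmd, Psme, Psmf or Psmg and a digit. The arrays annotate 48 such symbols, and 41 of them had a probe with a detection p-value under 0.05 on at least 6 arrays, out of 14984 genes or unnamed probes tested. The probe with the highest mean signal stood for each gene. The 7 symbols that were not kept were Psma1, Psma3, Psma6, Psmd3 and Psmg4, whose probes reached that detection p-value on 0 arrays, Psma8, which reached it on 3, and Psmb11, which reached it on 1. Psmc3ip and Psme3ip1 met the symbol rule but encode partner proteins and not subunits. Of the 41 genes, 39 were detected on all 24 arrays, and Psmb9 and Psmd5 on 23.

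The 4 groups held 6 female mice each, all 5 weeks old, and 1 array per mouse. TG run mice and WT run mice ran downhill for 40 min on a treadmill tilted by 20 degrees, reaching 17 m/min after 2 min of acceleration that began at 10 m/min. The gastrocnemius-soleus complex was taken 3 h later. TG rest mice and WT rest mice stayed sedentary. The promoter that drives the transgene and the strain background were not given in the sources used here, and male mice of the study were not analysed here. The mouse Itga7 probe gave no check of the genotype labels: its median was 8.94 in TG run, 9.17 in TG rest, 8.98 in WT run and 9.02 in WT rest muscles (log2 signal). Its genotype difference was 0.22 ± 0.31 (SE) at rest and 0.00 ± 0.31 after the run, with limma adjusted p-values of 0.9994 and 0.9998. Whether that probe reads the transgene was not given in the sources used here.

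The proteasome is the barrel-shaped protease that degrades proteins tagged with ubiquitin. Alpha and beta subunits stack into the core particle, whose beta rings hold the proteolytic sites. A regulatory particle of ATPases (Psmc genes) and further subunits (most Psmd genes) recognises, unfolds and feeds in the tagged protein, and dedicated chaperones assist assembly. In lymphoid cells, and in other cells exposed to interferon gamma, the catalytic subunits Psmb8, Psmb9 and Psmb10 replace constitutive ones to form the immunoproteasome, which serves antigen processing together with the activator subunits Psme1 and Psme2. In skeletal muscle the proteasome takes part in the turnover of contractile proteins.

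The muscle complex can carry other tissue, and 2 marker lists stood apart between arrays. The mean of 18 measured lymphocyte genes was between 5.02 and 5.51 (log2 signal) on 13 arrays and between 6.95 and 9.67 on 11 arrays. The high arrays were 4 of 6 in TG run, 2 of 6 in TG rest, 2 of 6 in WT run and 3 of 6 in WT rest. The mean of 11 measured slow fibre genes was between 10.86 and 12.14 on 14 arrays and between 12.57 and 13.07 on 10 arrays, of which 2, 3, 3 and 2 were TG run, TG rest, WT run and WT rest arrays. The mean of 11 fast skeletal muscle genes was between 14.7 and 14.9 on every array. Raw median signal ranged between 105.2 and 137.9 over the arrays, and between 40.2% and 46.2% of the probes were detected.

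The promoter windows of 5 genes described below are printed. They are the immunoproteasome subunits Psmb8, Psmb9 and Psmb10, the activator subunit Psme1, and Psme4, which encodes the activator PA200. Of these, Psme1 was not called in any group comparison, nor on either marker mean in the fit with both means. Each window is from RefSeq (GRCm38.p6) and holds 300 bases, most of them before the annotated start and the last of them after it, 5′ to 3′ along the gene's strand. The windows are Psmb8 at chr17:34197945-34198244 (plus strand), Psmb9 at chr17:34187281-34187580 (minus), Psmb10 at chr8:105938343-105938642 (minus), Psme1 at chr14:55578244-55578543 (plus) and Psme4 at chr11:30771525-30771824 (plus). Capitals mark a match to one of the searched motifs: the CCAAT box on the reverse strand in Psmb9 (bases 243 to 247 of the window), an interferon regulatory factor element on the reverse strand in Psme1 (bases 260 to 269) and an antioxidant response element on the reverse strand in Psme4 (bases 244 to 252).
Psmb8: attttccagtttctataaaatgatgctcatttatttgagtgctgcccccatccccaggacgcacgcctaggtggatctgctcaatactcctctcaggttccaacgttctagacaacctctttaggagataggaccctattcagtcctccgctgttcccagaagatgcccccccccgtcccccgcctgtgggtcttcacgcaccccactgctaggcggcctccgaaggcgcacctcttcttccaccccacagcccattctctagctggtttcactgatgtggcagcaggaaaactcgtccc
Psmb9: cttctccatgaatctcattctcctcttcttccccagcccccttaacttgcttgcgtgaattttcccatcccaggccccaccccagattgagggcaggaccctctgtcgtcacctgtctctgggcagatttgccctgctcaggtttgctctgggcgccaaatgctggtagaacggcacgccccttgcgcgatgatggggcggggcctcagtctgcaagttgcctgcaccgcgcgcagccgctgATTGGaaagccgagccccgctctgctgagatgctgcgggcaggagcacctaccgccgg
Psmb10: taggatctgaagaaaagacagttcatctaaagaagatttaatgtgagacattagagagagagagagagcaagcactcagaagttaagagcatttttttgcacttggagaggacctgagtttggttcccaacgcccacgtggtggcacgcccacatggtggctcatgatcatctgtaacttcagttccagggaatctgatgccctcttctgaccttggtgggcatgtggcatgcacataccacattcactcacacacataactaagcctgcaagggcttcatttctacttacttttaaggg
Psme1: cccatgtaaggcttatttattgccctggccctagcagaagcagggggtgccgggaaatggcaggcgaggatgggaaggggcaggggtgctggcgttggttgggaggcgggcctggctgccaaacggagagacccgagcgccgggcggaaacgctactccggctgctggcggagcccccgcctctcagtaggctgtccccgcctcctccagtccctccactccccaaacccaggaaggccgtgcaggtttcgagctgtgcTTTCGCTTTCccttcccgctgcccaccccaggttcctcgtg
Psme4: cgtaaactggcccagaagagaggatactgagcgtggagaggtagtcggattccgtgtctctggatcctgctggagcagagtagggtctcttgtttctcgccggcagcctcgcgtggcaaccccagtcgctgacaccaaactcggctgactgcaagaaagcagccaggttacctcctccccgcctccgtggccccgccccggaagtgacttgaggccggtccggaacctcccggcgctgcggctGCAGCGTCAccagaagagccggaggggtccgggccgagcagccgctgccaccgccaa

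Windows were found for 35 of the 41 genes, and 4 motifs were searched on both strands. A gene was counted if any of its windows held the motif. The interferon regulatory factor element is GAAA and GAAA with 2 free bases between them. It was in 4 of the 35 genes (11.4%, namely Psmb3, Psmd4, Psmd9 and Psme1), against 3.99% of the 27025 genes with a window. The antioxidant response element TGACNNNGC was in 5 (14.3%; Psmb6, Psmc6, Psmd12, Psmd9 and Psme4), against 14%. The box CCAAT was in 12 (34.3%), against 41.1%. The nuclear respiratory factor 1 site GCATGCGC was in 3 (8.57%; Psma2, Psmc5 and Psmg1), against 3.05%. These shares rest on few genes and were not tested. The genes were not matched for base composition. The median GC content was 59.3% over the windows of the family, against 52.7% over all windows. The windows of Psmb8 and Psmb10 held none of the 4 letter patterns.

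No proteasome gene passed the test for a response to the run, in either genotype or averaged over both. After the run in TG muscle, 0 of 41 genes were called (limma, adjusted p under 0.05, with 0.00667% of all genes called), and 0 of 41 were called in WT muscle (0% of all genes). Averaged over both genotypes, 0 of 41 were called (0.0133% of all genes), and the 15 higher and 26 lower values had a median of −0.05, against a median of 0.00 over all 14984. In TG muscle 11 genes were higher and 30 lower after the run, with a median of −0.07 (−0.02 over all genes), and in WT muscle 22 were higher and 19 lower, with a median of 0.01 (0.01 over all genes; 17 higher, 24 lower and −0.03 with median scaling in place of quantile normalisation). Directions here and below are those of the brightest probe of each gene. The 22 genes with several probes had 28 other probes. Of these, 19 had the sign of the brightest probe in TG muscle, 14 in WT muscle and 16 averaged over both genotypes. At an unadjusted p under 0.05 the run counts were 1 of 41 proteasome genes and 713 of all genes in TG muscle, and 0 and 322 in WT muscle. The p-values set each difference against the spread between mice within groups. That spread was estimated once per gene over all 4 groups of 6 mice and moderated over all genes.

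The interval of the run difference was narrow for most of the family. It lay within 0.5 log2 units of 0 for 29 of 41 genes in TG muscle (70.7%, against 48.8% of all genes) and for 32 in WT muscle (78%, against 54.7%). The spread within groups had a median SD of 0.21 over the family and 0.30 over all genes, and 31 of the 41 genes were below the latter value. These comparisons with all genes were not matched for signal level. Of the 41 genes 39 were detected on all 24 arrays, whereas detection on 6 arrays sufficed for a gene to be tested. The smallest spreads were those of the alpha ring subunits Psma5 (0.08) and Psma2 (0.09), and the largest were those of Psmb8 (1.52), Psmb9 (0.78) and the regulatory particle scaffold Psmd2 (0.68). Psmb9 and Psmd2 also had low signal, at most 7.50 and 7.61, against at least 12.62 for the regulatory particle subunit Psmd1.

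**Figure D1:**
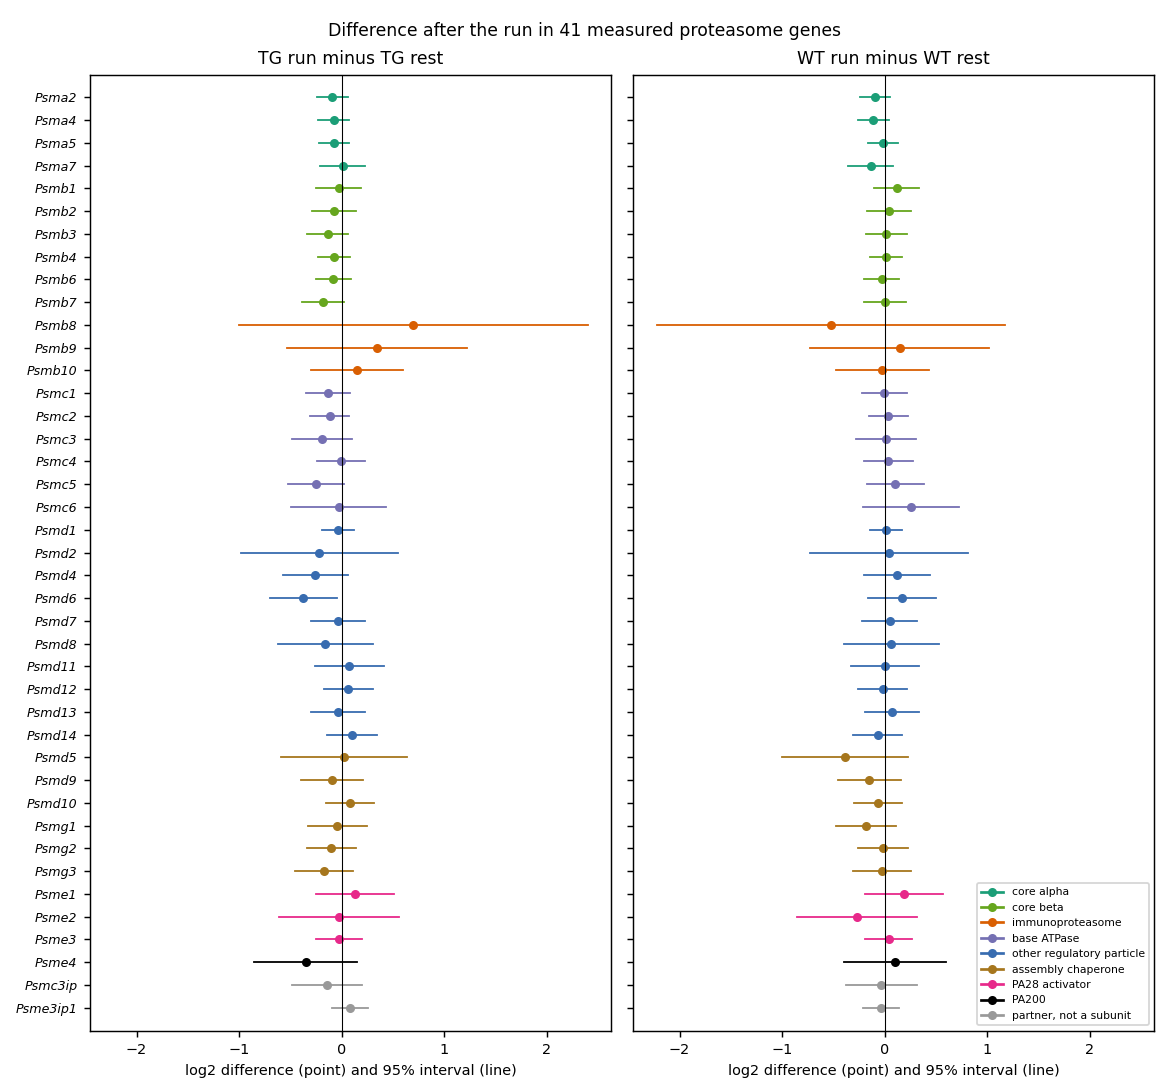
Run minus rest difference of each of the 41 measured proteasome genes (log2, point) with its 95% interval (line), in TG muscle on the left and WT muscle on the right, coloured by role. The intervals of Psmb8 and Psmb9 are the widest, and the one interval that leaves out 0 is that of Psmd6 in TG muscle, whose adjusted p was 0.8404.

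Among the core alpha subunits, Psma2 and Psma4 had the smallest p-values of the family for the run averaged over genotypes. Psma2 signal had a lowest, median and highest value of 13.08, 13.24 and 13.31 in TG run muscles, against 13.22, 13.31 and 13.44 in TG rest muscles. In WT run muscles the values were 13.12, 13.25 and 13.36, against 13.26, 13.3 and 13.47 in WT rest muscles. The run muscles reached lower than the rest muscles in both genotypes, and the groups overlapped. The averaged difference was −0.09 ± 0.05 (SE; adjusted p = 0.9905). Psma4 had 12.33, 12.62 and 12.67 in TG run muscles, against 12.52, 12.67 and 12.74 in TG rest muscles. It had 12.57, 12.61 and 12.78 in WT run muscles, against 12.7, 12.73 and 12.81 in WT rest muscles. Here 1 WT run array at 12.78 lay among the rest values and the others below them, and the difference in WT muscle was −0.11 ± 0.07 (adjusted p = 0.9998). All 4 measured alpha subunits had an averaged value below 0 (−0.09 to −0.04), and none was called.

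The 6 constitutive beta subunits all had values below 0 after the run in TG muscle (−0.18 to −0.03), and 5 of 6 had values above 0 in WT muscle (−0.03 to 0.12; 3 of 6 with median scaling), with none called. Psmb7, the constitutive subunit with trypsin-like activity, had 12.82, 12.91 and 13.12 in TG run muscles, against 12.89, 13.11 and 13.36 in TG rest muscles. The ranges overlapped over most of their width, and the difference was −0.18 ± 0.10 (adjusted p = 0.8404).

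In the regulatory particle, the 6 base ATPases had values below 0 after the run in TG muscle (−0.25 to 0.00; 5 of 6 with median scaling) and 5 of 6 had values above 0 in WT muscle (0.00 to 0.26), again with none called. The slow fibre genes had 11 of 11 values above 0 in WT muscle (median 0.40). With both marker means as covariates, 1 of 6 base ATPases and 2 of 6 core beta subunits were above 0 in WT muscle, and 1 of 6 and 0 of 6 in TG muscle. Psmc5, one of these ATPases, had 11.19, 11.51 and 11.77 in TG run muscles, against 11.5, 11.71 and 12.02 in TG rest muscles. It had 11.5, 11.66 and 12.04 in WT run muscles, against 11.42, 11.61 and 11.81 in WT rest muscles. The TG run group reached lowest of the 4, and all groups overlapped. The run difference in TG muscle was −0.25 ± 0.13 (adjusted p = 0.8404). Psmd6, a subunit of the lid that docks on the base, had 7.68, 7.91 and 8.51 in TG run muscles, against 8.15, 8.39 and 8.61 in TG rest muscles. Of the 6 TG run values 4 lay below the TG rest range and the other two inside it. In WT run muscles Psmd6 had 8.17, 8.29 and 8.65, against 7.65, 8.17 and 8.63 in WT rest muscles, and the WT rest group spanned the whole WT run range but its top. The run difference of Psmd6 was −0.37 ± 0.16 in TG muscle (unadjusted p = 0.029, adjusted p = 0.8404), the only proteasome gene with an unadjusted p under 0.05 there. Beside it, the lymphocyte genes had a median run difference of 1.20 and the slow fibre genes one of −0.14 in TG muscle, none of them called. With both marker means as covariates the value was −0.25 ± 0.13 (adjusted p = 0.4276).

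The genotype difference in the run response was also not called for any gene, with 0 of 41 (0% of all genes). The 3 smallest p-values belonged to Psmd6 at −0.54 ± 0.23 (unadjusted p = 0.026, adjusted p = 0.9259), Psmc5 at −0.35 ± 0.19 and the ubiquitin receptor Psmd4 at −0.38 ± 0.22. Psmd4 had 12.59, 12.68 and 13.00 in TG run muscles, against 12.75, 12.86 and 13.39 in TG rest muscles. It had 12.58, 12.94 and 13.36 in WT run muscles, against 12.64, 12.74 and 13.19 in WT rest muscles. The medians lay in opposite order in the 2 genotypes and all ranges overlapped. Of the 28 other probes of the family, 20 had the sign of the brightest probe in this comparison. All 6 core beta and all 6 base ATPase values were below 0 in this comparison and the 3 immunoproteasome values above 0. Median scaling kept these directions while the median of all genes was 0.10, against −0.02 with quantile normalisation. With both marker means as covariates the 6 core beta values stayed below 0, 5 of 6 base ATPase values were below 0, and Psmb8, Psmb9 and Psmb10 had 0.05 (against 1.22 without covariates), −0.38 and −0.12. In the same comparison the lymphocyte genes had a median of 1.48 with 18 of 18 above 0, and the slow fibre genes a median of −0.51 with 11 of 11 below 0, none of them called.

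The assembly chaperones had no call either. All 6 measured chaperones had values below 0 after the run in WT muscle (−0.39 to −0.02), and 4 of 6 in TG muscle (2 of 6 with median scaling). Psmg1, which helps to build the alpha ring, had 8.07, 8.33 and 8.41 in WT run muscles, against 8.24, 8.48 and 8.69 in WT rest muscles. The ranges overlapped, with a difference of −0.18 ± 0.14 (adjusted p = 0.9998).

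Among the immunoproteasome subunits, Psmb8 and Psmb9 had the largest spread within groups of the 41 genes, and Psmb10 had an SD of 0.39. Psmb8 had a lowest, median and highest value of 7.62, 9.44 and 11.45 in TG run muscles, against 7.4, 8.72 and 11.02 in TG rest muscles. In WT run muscles it had 7.11, 8.16 and 11.18, against 7.56, 9.06 and 11.48 in WT rest muscles. Each group thus held both low and high arrays, over a range of several log2 units. Psmb9 had 5.82, 6.67 and 7.03 in TG run muscles, against 5.25, 6.00 and 7.50 in TG rest muscles. It had 5.43, 5.82 and 7.31 in WT run muscles, against 4.83, 6.14 and 7.12 in WT rest muscles. Psmb10 had 10.13, 10.61 and 11.19 in TG run muscles, against 10.03, 10.39 and 11.11 in TG rest muscles. It had 10.18, 10.25 and 11.04 in WT run muscles, against 9.98, 10.41 and 11.20 in WT rest muscles. For these 3 genes all 4 groups overlapped nearly completely. The run differences in TG muscle were 0.70 ± 0.82 for Psmb8, 0.35 ± 0.42 for Psmb9 and 0.15 ± 0.22 for Psmb10, and in WT muscle −0.52 ± 0.82, 0.15 ± 0.42 and −0.02 ± 0.22. Beside them the lymphocyte genes had median run differences of 1.20 in TG and −0.34 in WT muscle. With both marker means as covariates the values of Psmb8, Psmb9 and Psmb10 were 0.25 ± 0.17, −0.02 ± 0.16 and −0.02 ± 0.09 in TG muscle, and 0.20 ± 0.17, 0.36 ± 0.16 and 0.11 ± 0.09 in WT muscle, so signs turned for Psmb9 and Psmb10 in TG and for Psmb8 and Psmb10 in WT muscle, and none was called. Without the covariates, the 95% interval of Psmb8 ran between −1.0 and 2.40 in TG muscle, so that at this spread a change of the order of its own estimate was not detectable.

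**Figure D2:**
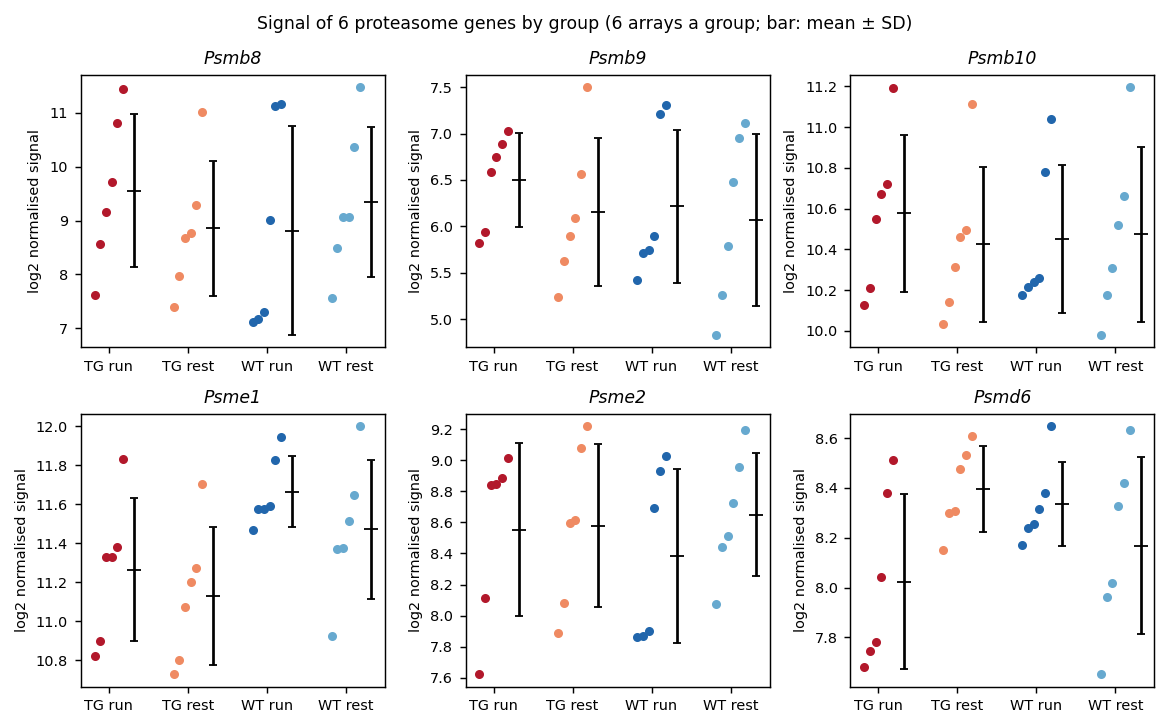
Log2 normalised signal of 6 proteasome genes on each array (points) by group, TG run, TG rest, WT run and WT rest, with the mean and SD of the 6 arrays (bar). Psmb8, Psmb9 and Psmb10 have high and low arrays in every group, the medians of Psme1 are lower in both TG groups, and 4 of the 6 TG run arrays of Psmd6 lie below the TG rest arrays.

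Transgenic and WT muscles did not differ in any proteasome gene that passed the test, at rest or after the run. At rest 0 of 41 genes were called (0.0734% of all genes), with 25 higher and 16 lower in TG muscle and a median of 0.05 (0.01 over all genes; −0.06 and −0.09 with median scaling, with 15 higher and 26 lower). With the replicate number as a block, 0 of 41 were called at rest and 2 of all genes, against 11 without the block. After the run 0 of 41 were called (0.0868% of all genes), with 18 higher and 23 lower and a median of −0.02 (−0.01 over all genes). Of the 28 other probes of the family, 18 had the sign of the brightest probe at rest and 16 after the run. In no comparison of 2 groups did any proteasome gene have ranges that did not overlap. Over all genes the shares without overlap were 0.113% for TG run against TG rest, 0.0801% for WT run against WT rest, 0.254% for TG rest against WT rest and 0.22% for TG run against WT run.

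Psme1, a subunit of the activator that caps the core particle in antigen processing, had the smallest p of the family for genotype in both states. It had 10.82, 11.33 and 11.83 in TG run muscles, against 11.47, 11.59 and 11.95 in WT run muscles. It had 10.73, 11.14 and 11.71 in TG rest muscles, against 10.92, 11.45 and 12.00 in WT rest muscles. The TG medians were the lower ones in both states, and the ranges overlapped. The genotype difference was −0.40 ± 0.18 after the run (unadjusted p = 0.040, adjusted p = 0.9979) and −0.34 ± 0.18 at rest (unadjusted p = 0.075, adjusted p = 0.9994). With both marker means as covariates it was −0.51 ± 0.14 after the run (unadjusted p = 0.0014, adjusted p = 0.2346) and −0.27 ± 0.14 at rest (adjusted p = 0.8216). Psme2, its partner subunit, had 7.62, 8.84 and 9.01 in TG run muscles, against 7.87, 8.30 and 9.03 in WT run muscles. It had 7.89, 8.60 and 9.22 in TG rest muscles, against 8.08, 8.62 and 9.19 in WT rest muscles. The genotype differences of Psme2 were 0.17 ± 0.28 after the run and −0.07 ± 0.28 at rest. The next smallest p-values at rest were those of Psmd6, at 0.23 ± 0.16, and the ATPase Psmc6, at 0.30 ± 0.23. Psmc6 had 6.20, 6.58 and 6.81 in TG rest muscles, against 5.63, 6.07 and 6.94 in WT rest muscles. After the run they were those of Psmd6, at −0.31 ± 0.16, and Psmc5, at −0.22 ± 0.13, so that Psmd6 had its TG value above WT at rest and below WT after the run, without a call in either.

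Other genes of the pathway were read from the same fits. Of 12 measured ubiquitin-proteasome genes outside the symbol rule, 0 were called in any of the 6 group comparisons. Among the 12 were shuttle factors, deubiquitinases, the maturation factor Pomp and the transcription factors Nfe2l1 and Nfe2l2. After the run, 1 of 12 had a value above 0 in TG muscle (median −0.14) and 8 of 12 in WT muscle (median 0.09). Of 11 measured antigen processing genes 0 were called, with 10 of 11 above 0 after the run in TG muscle (median 0.40) and 1 of 11 in WT muscle (median −0.26). In these comparisons the lymphocyte genes had medians of 1.20 in TG and −0.34 in WT muscle, and the macrophage and monocyte genes 0.44 and −0.12, and their part in the lists' values was not tested. In this tissue, fewer cells of a type and less RNA per cell cannot be told apart.

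The proteasome genes were also read against the 2 marker means of each array. A fit over all 24 arrays with the 4 group means, the lymphocyte mean and the slow fibre mean gave each gene a slope, in log2 units of signal per log2 unit of the marker mean. On the lymphocyte mean 11 of 41 genes were called (26.8%), against 35.1% of all genes, and on the slow fibre mean 22 of 41 (53.7%), against 49.3%. As a family the proteasome genes were thus called at a share near that of all genes. By direction, 5 were higher and 6 lower with the lymphocyte mean (all genes 17.3% and 17.8%), and with median scaling 3 and 3. The 5 were the 3 immunoproteasome subunits, Psme4 (slope 0.08) and 1 regulatory particle subunit other than the ATPases. Of all calls on that mean 49.2% were higher, and 78.2% with median scaling. In the family 12 were higher and 10 lower with the slow fibre mean (all genes 28.2% and 21.1%). Both marker means fell into a low and a high set of arrays, and slopes were also fitted within each set. Within the arrays high in lymphocyte genes, 0 of 41 genes had a called slope on the lymphocyte mean (7.06% of all genes), and 0 of 41 within the low arrays (0%). On the slow fibre mean, 0 of 41 were called within the high arrays (0%) and 0 of 41 within the low arrays (0%).

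All 3 immunoproteasome subunits rose with the lymphocyte mean. The slopes were 0.31 ± 0.04 for Psmb9 (adjusted p = 2.9e-06), 0.26 ± 0.04 for Psmb8 (adjusted p = 8.0e-05) and 0.13 ± 0.02 for Psmb10 (adjusted p = 9.6e-05), the highest 3 of the family. With the replicate number as a block, Psmb9 was still called (0.20, adjusted p = 0.026), whereas Psmb8 (0.25, adjusted p = 0.053) and Psmb10 (0.11, adjusted p = 0.055) were not, and 2 of 41 genes were called in all. Psmb9 had 6.48 to 7.50 on the 11 arrays high in lymphocyte genes, against 4.83 to 6.09 on the 13 low arrays, and it was the 1 gene of 41 whose ranges did not overlap (3.36% of all genes). Psmb10 had 10.46 to 11.20 on the high arrays, against 9.98 to 10.49 on the low arrays. The constitutive alpha and beta subunits had slopes between −0.05 and 0.01, and of these 10 genes only Psmb6, at −0.05 ± 0.02, was called (adjusted p = 0.043).

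Psmb8 moved with both marker means. It had 9.72 to 11.48 on the 8 arrays that were high in lymphocyte and low in slow fibre genes, and 8.77 to 9.28 on the 6 arrays low in both. It had 8.48 to 8.68 on the 3 arrays high in both, and 7.11 to 7.98 on the 7 arrays low in lymphocyte and high in slow fibre genes. These 4 sets did not overlap, and the share of all genes separated in this way was not computed. The slope of Psmb8 on the slow fibre mean was −1.53 ± 0.11 (adjusted p = 3.4e-09), the steepest of the family. A second Psmb8 probe had slopes of 0.31 on the lymphocyte mean and −0.67 on the slow fibre mean, both called. Psmb10 fell with the slow fibre mean (−0.20 ± 0.06, adjusted p = 0.0067). It was not called with median scaling, at −0.18, or with the replicate number as a block, at −0.08. Psmb9 had −0.25 ± 0.11 (adjusted p = 0.055). Its slope was called with the slow fibre mean alone (−0.76) and with median scaling (−0.30), and was 0.60 within the arrays low in slow fibre genes. Beside these values, all 11 macrophage and monocyte genes were called lower with the slow fibre mean, with a median slope of −0.62, and their part in the slopes of Psmb8 and Psmb10 was not tested.

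**Figure D3:**
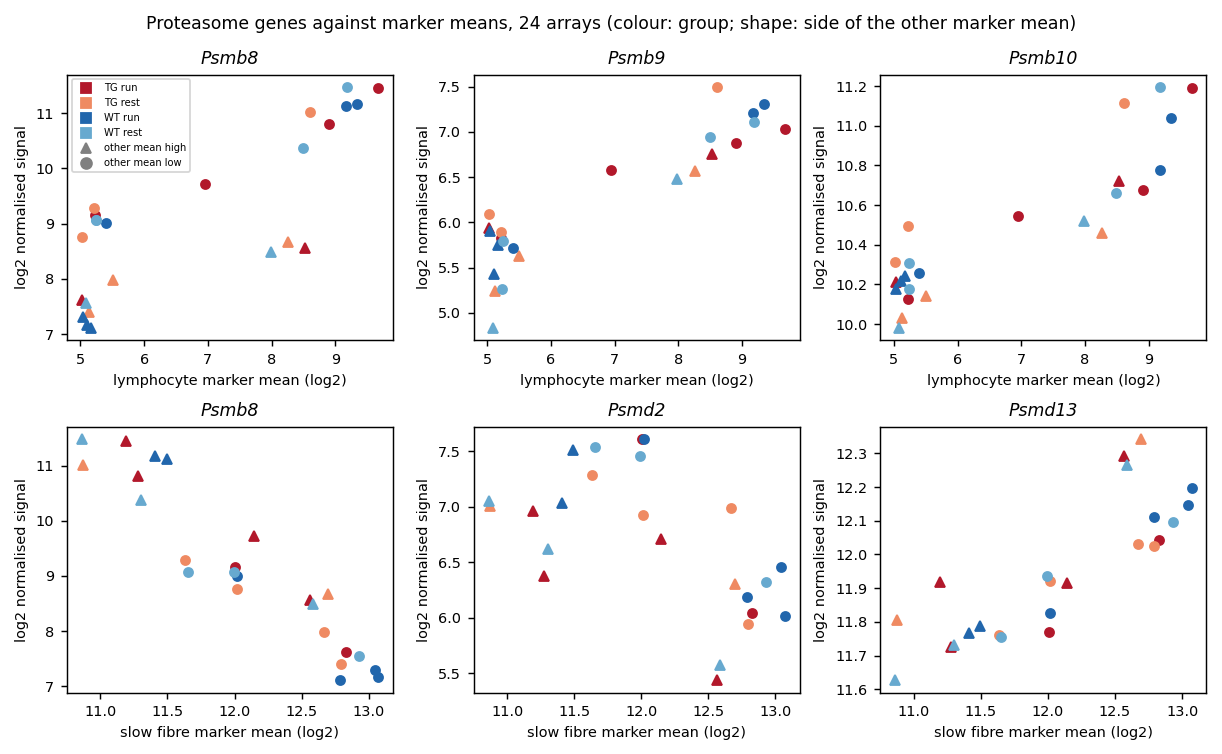
Log2 normalised signal of Psmb8, Psmb9 and Psmb10 against the lymphocyte marker mean (top) and of Psmb8, Psmd2 and Psmd13 against the slow fibre marker mean (bottom), 1 point per array, coloured by group, with triangles for arrays high and circles for arrays low in the other marker mean. Psmb8 falls into 4 separate sets, a pattern whose share over all genes was not computed. Psmb9 has no overlap between the 11 high and 13 low lymphocyte arrays, as had 3.36% of all genes.

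The activator subunits Psme1 and Psme2 differed in the fit with both marker means. Psme2 had 7.62 to 8.60 on the 10 arrays high in slow fibre genes, against 8.51 to 9.22 on the 14 low arrays, and fell with the slow fibre mean (−0.72 ± 0.10, adjusted p = 7.6e-06). Its lymphocyte slope was −0.09 ± 0.04 (adjusted p = 0.078), opposite in sign to that of Psme1, 0.09 ± 0.04 (adjusted p = 0.065), and neither was called. Psme1 had a slow fibre slope of −0.11 ± 0.09 (adjusted p = 0.32). With the lymphocyte mean alone both slopes were above 0, at 0.11 for Psme1 (called) and 0.08 for Psme2. With the slow fibre mean alone Psme1 was called lower, at −0.25. The difference between these subunits thus depended on the fit.

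Regulatory particle genes went both ways with the slow fibre mean. Of the 10 measured subunits other than the ATPases, 4 were called higher and 3 lower, with a median slope of −0.07. Those described next rose. The lid subunit Psmd13 had 12.03 to 12.34 on the 10 arrays high in slow fibre genes, against 11.63 to 11.94 on the 14 low arrays, with a slope of 0.34 ± 0.04 (adjusted p = 2.3e-06). Psmd4 had 12.89 to 13.39, against 12.58 to 12.83, with a slope of 0.38 ± 0.06 (adjusted p = 2.3e-05). Neither gene's ranges overlapped. Psmd8, a further lid subunit, had 10.85, 11.79 and 12.27 in TG run muscles, against 11.13, 11.85 and 12.26 in TG rest muscles. It had 11.54, 12.03 and 12.44 in WT run muscles, against 11.64, 11.89 and 12.29 in WT rest muscles, and the groups overlapped. On the arrays high in slow fibre genes it had 11.84 to 12.44, against 10.85 to 11.96 on the low arrays, and a slope of 0.45 ± 0.11 (adjusted p = 0.0024). Of the 6 base ATPases 4 were called higher, namely Psmc2 (0.13), Psmc3 (0.24), Psmc4 (0.25) and Psmc5 (0.27). In all, 7 of 41 genes had ranges that did not overlap between high and low slow fibre arrays (7.25% of all genes): Psmc4, Psmc5, Psmd4, Psmd7, Psmd13 and Psme4 were above and Psmb8 below.

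Psme4, which encodes the activator PA200, had 12.01, 12.15 and 12.85 in TG run muscles, against 12.09, 12.69 and 13.37 in TG rest muscles. It had 12.17, 12.54 and 13.05 in WT run muscles, against 12.14, 12.30 and 13.13 in WT rest muscles, with overlap of all groups. It had 12.71 to 13.37 on the arrays high in slow fibre genes, against 12.01 to 12.36 on the low arrays. Its slope of 0.64 ± 0.07 (adjusted p = 8.6e-07) was the highest of the family on that mean. A second, dimmer Psme4 probe had a slope of the opposite sign, −0.31 ± 0.13 (adjusted p = 0.062), and averaging both probes gave 0.19 (adjusted p = 0.14), so the direction of Psme4 depended on the probe. The other probes of Psmc2, Psmc5 and, for 1 of 2, Psmd7 also had slow fibre slopes of the opposite sign (−0.48, −0.51 and −0.69). Over the genes called on the slow fibre mean, 9 of 14 other probes had the sign of the brightest probe, and on the lymphocyte mean 7 of 8.

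Psmd2, a scaffold of the regulatory particle base, fell with the slow fibre mean. Its lowest, median and highest values were 5.44, 6.55 and 7.61 in TG run muscles, against 5.94, 6.96 and 7.29 in TG rest muscles. They were 6.02, 6.75 and 7.61 in WT run muscles, against 5.57, 6.84 and 7.54 in WT rest muscles, and all 4 groups overlapped. It had 5.44 to 6.99 on the arrays high in slow fibre genes, against 6.38 to 7.61 on the low arrays. Its slope on the slow fibre mean was −0.97 ± 0.15 (adjusted p = 1.5e-05). On the lymphocyte mean it was −0.25 ± 0.06 (adjusted p = 0.0020) in the fit with both means, −0.0072 and not called with the lymphocyte mean alone, and −0.20 and not called with the replicate block. The high and low lymphocyte arrays overlapped in Psmd2, with medians of 6.72 and 6.92. A second Psmd2 probe had −1.0 on the slow fibre mean and −0.29 on the lymphocyte mean, both called in the fit with both means. The base chaperone Psmd5 had 5.69, 6.57 and 7.16 in TG run muscles, against 5.94, 6.43 and 6.94 in TG rest muscles. It had 5.22, 6.29 and 6.97 in WT run muscles, against 5.77, 6.79 and 7.02 in WT rest muscles, with overlap throughout. On arrays high in slow fibre genes it had 5.22 to 6.67, against 6.30 to 7.16 on low arrays, with a slow fibre slope of −0.69 ± 0.13 (adjusted p = 0.00022). Psmd6 fell with the lymphocyte mean (−0.12 ± 0.03, adjusted p = 0.0051; not called with median scaling, at −0.08, or with the block, at −0.09), as did Psmd12, Psmd9, Psmg1 and Psmb6, with slopes between −0.10 and −0.05.

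**Figure D4:**
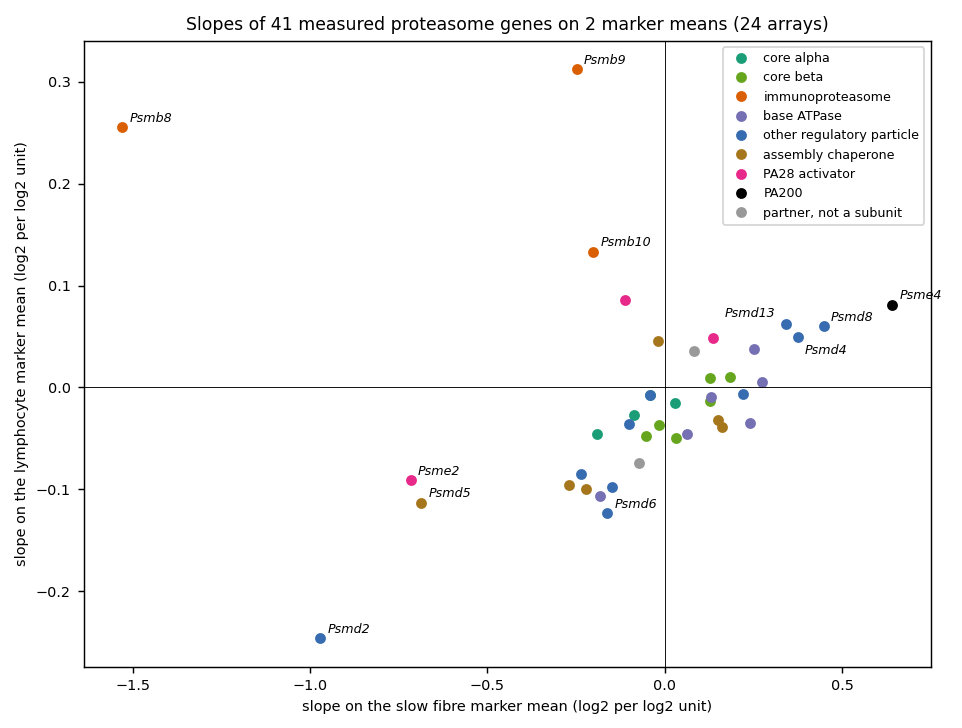
Slope of each of the 41 proteasome genes on the slow fibre marker mean (horizontal) and on the lymphocyte marker mean (vertical), in log2 units of signal per log2 unit of the marker mean, coloured by role. The 3 immunoproteasome genes have the highest lymphocyte slopes, Psmb8 lies far to the left at −1.53, and Psme4 lies farthest to the right at 0.64.

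The pathway genes outside the family were read against the same means. Of all genes, 17.3% were called higher and 17.8% lower with the lymphocyte mean, and 28.2% and 21.1% with the slow fibre mean. Of 11 antigen processing genes, 7 were called higher and 1 lower with the lymphocyte mean, and 2 higher and 7 lower with the slow fibre mean. Nlrc5, an activator of class I antigen presentation genes, had a lymphocyte slope of 0.66 ± 0.04 (adjusted p = 1.5e-11), and the peptide transporter Tap1 had 0.53 ± 0.04 (adjusted p = 2.4e-09). Both also rose with the slow fibre mean, by 0.42 ± 0.11 and 0.45 ± 0.12, whereas Psmb8 fell with it. Of the 12 ubiquitin-proteasome genes outside the symbol rule, 6 were called higher and 1 lower with the slow fibre mean, and 1 each with the lymphocyte mean. These 12 genes were too few to set their share apart from that of all genes. The unfoldase Vcp, at 0.43 ± 0.06 (adjusted p = 5.5e-06), and Nfe2l1, which encodes a transcription factor for proteasome genes, at 0.43 ± 0.06 (adjusted p = 5.8e-06), were among those that rose, and Nfe2l2 was the one that fell, at −0.44 ± 0.10 (adjusted p = 0.0012).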

How the data were processed

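Total RNA of gastrocnemius and soleus was measured on Illumina bead arrays, 1 per mouse. The deposited table holds a raw intensity per probe, with no normalization, and a detection p-value, per the file headers. A deposited matrix of log2 values differed from the values computed here by at most 0.0269. The tools used by the authors were limma 3.20.8 and R 3.1.1, per the submitters' processing notes. Here, intensities were background corrected and quantile normalised by neqc (limma 3.58.1, R 4.3.3, offset 16). Of 45281 probes 21788 had a detection p-value under 0.05 on at least 6 arrays. In the platform annotation 34885 probes had 1 symbol, 18 several and 10378 none. All 41 genes matched RefSeq by Entrez ID.

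limma (lmFit, eBayes) was fitted on all 24 arrays with 4 group means, and p-values were adjusted by Benjamini-Hochberg over 14984 features. The slopes used the lymphocyte and slow fibre marker means together. Genes given with group values were the 3 with the smallest p in each group comparison, the 3 with the highest and lowest slopes, and Psmb8, Psmb9, Psmb10, Psme1 and Psme2 throughout. Psmd13 and further genes were named after their values were seen. The members and lists were chosen with earlier results of these data known. The tests were tried on simulated data. Of the alternatives, 13 were planned and 2 added, and each array was left out in turn. TG rest and WT rest mice of the same number deviated together (correlations 0.347, 0.687 and 0.412), as a hint from the data. The number of arrays limits the precision. 1 gene of the family is not reported here.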

Additional observations from a re-analysis of the deposited data

Results flagged for a closer look

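Among the 17 genes given with group values, the arrays of each of 68 sets of 6 were searched for a value far from the rest by Dixon's ratio (95% critical value 0.625). Chance marks about 1 in 20 sets, and 2 were marked, both in the alpha ring gene Psma4. The array of TG run mouse 3 was at 12.33, with the nearest of its group at 12.59 (ratio 0.764). The array of WT run mouse 5 was at 12.78, with the nearest at 12.64 (ratio 0.655).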

How the results depend on the processing

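In the 12 or 13 other settings run for each of the 6 group comparisons, and in 24 fits that each left out 1 array, 0 proteasome genes were called. Over all 15 settings and the 24 fits, slopes included, 1209 of 1277 values of single genes kept their direction and their side of the threshold. The settings that keep only arrays low or high in slow fibre genes were chosen after seeing the data. Median scaling turned the median of the family at rest between genotypes to −0.0599 and left 0 genes of all called after the run in TG muscle and 6 proteasome genes on the lymphocyte mean. Without background correction, and with array weights, that last count was 17. Array weights also gave 5 genes of all for the averaged run and 2 in WT muscle. Requiring detection on all 24 arrays gave 4 genotype calls at rest and 8 after the run, and fitting only the 2 groups compared gave 7 and 6, and 0 for the run in TG muscle. The replicate block gave 0 for the run in TG muscle, 2 for genotype at rest and 2 after the run, 1406 genes (2 of the family) on the lymphocyte mean and 4045 (11) on the slow fibre mean. Apart from TG rest against WT rest, same-numbered mice did not all deviate together (correlations from −0.596 to 0.705). With both marker means as covariates the counts over all genes were 37 for the averaged run, 4 in TG muscle, 19 for genotype at rest and 29 after the run.

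Only arrays low in lymphocyte genes gave 0, 0, 3 and 2 for these, 0 genes (0 of the family) on the lymphocyte mean and 3661 (9) on the slow fibre mean; the lymphocyte slope changed sign for Psmd2 (1.59), Psmd6 (0.63), Psmd5 (1.40), Psmb10 (−0.24), Psmb9 (−0.47), Psme1 (−0.0905) and Psme2 (0.77). Only arrays high in lymphocyte genes gave 1058 (0) on that mean. The lymphocyte mean alone turned Psmd5 (0.0558) and Psme2 (0.0848) and left Psmd2 at −0.0072, not called. Only arrays low in slow fibre genes gave 0, 0, 2 and 2, then 854 (2) on the lymphocyte and 0 (0) on the slow fibre mean, whose slope changed sign for Psmd4 (−0.0216), Psmd8 (−0.57), Psme4 (−0.0371) and Psmb9 (0.60). Only arrays high in slow fibre genes gave 0 for the averaged run, 0 in TG muscle, 8 for genotype after the run, 596 (1) on the lymphocyte and 0 (0) on the slow fibre mean, with Psmb8 (0.13), Psme4 (−0.35) and Psme1 (0.77) changing sign. Fewer arrays and a narrow range of the marker mean limit these fits, and the cause of the other changes was not tested. Leaving out single arrays gave 2 to 4 calls for the averaged run, 0 to 1 in TG and in WT muscle, 6 to 13 for genotype at rest and 6 to 16 after the run.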
